A study of Homo sapiens with 4 samples.

Results

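The integrated stress response lets a cell that is short of amino acids, burdened with misfolded protein or infected slow down translation while it makes the proteins needed to recover. Kinases phosphorylate the initiation factor eIF2, general translation drops, and the mRNA of the transcription factor ATF4 is translated more. ATF4, often paired with a C/EBP family protein, then binds composite sites known as C/EBP-ATF response elements (CARE) near genes for amino acid synthesis, amino acid transport, tRNA charging and, when stress persists, cell death. In liver cells, too, the programme has a part in amino acid metabolism.

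Accessible chromatin was examined around 10 genes of this response, ATF4, ATF3, DDIT3, ASNS, CHAC1, TRIB3, SESN2, PSAT1, PHGDH and DDIT4, in HepG2, a human hepatocellular carcinoma cell line. For each gene every ATAC-seq peak that overlapped the GENCODE gene body (hg38) or the 10 kb on either side of it was taken. Where peaks of different libraries shared 1 bp or more they were joined into a single region, which gave 41 regions at the 10 genes out of 80551 across the genome.

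ATAC-seq uses a transposase that inserts sequencing adapters into open DNA. There were 2 control libraries from untreated HepG2 cells and 2 libraries from HepG2 cells given 5 µM tazemetostat, an inhibitor of the histone methyltransferase EZH2, for 48 h. All cells were left to settle for 24 h beforehand and 50000 cells were used per library. The purpose of the series was to find where accessibility differs once EZH2 is inhibited. Only 1 cell line was used, the labels do not say whether the control cells received the solvent of the drug, and nothing says that the replicates were separate cultures, so p-values measure only the spread between these libraries.

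The control libraries held 17.2 and 23.8 M mapped tags and the tazemetostat libraries 19.8 and 26.6 M, so depth overlapped between the groups. Peaks numbered 26133 and 34768 in the controls against 55313 and 54157 under tazemetostat, and they held 4.32% and 5.69% against 11.5% and 9.81% of the tags. The same libraries enter every comparison below. The fragment length used in peak calling, 200 bp in both controls and 144 bp in both tazemetostat libraries, cannot be told apart from the treatment. The paper's methods describe a DNase I step before ATAC-seq for the tazemetostat-treated cells and do not say whether the controls had it. At the reference promoters of the hepatocyte markers APOA1, TTR and HNF4A all 4 libraries had a peak, while ALB and AFP had none in any library. Among markers of other cell types, PTPRC, CD3E, PECAM1 and COL1A1 had none and MYOD1 had a peak only in tazemetostat replicate 1.

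The CARE sites that lie in or near the promoters are shown first because several results below concern the regions that hold them. The letters TGATGNAA were searched on both strands from 1000 bases before to 50 after the start of the reference transcript, and a match was found at 7 of the 10 genes (70.0%), compared with 11.6% of 20033 coding genes. These genes are commonly described as ATF4 targets, so the high share repeats what is known about them. A match is a description of the letters and not of binding. Shown are the matches in a called region or, for CHAC1, close to the start. The PHGDH match, 954 bases before the start, and a second ASNS match lay in no region and are not shown. TRIB3 had no match in the searched stretch and is shown for the repeat just downstream of it. The sequences below are hg38, written in the direction of transcription, with the match in capitals.
ATF3, chr1:212608518-212608605 (+): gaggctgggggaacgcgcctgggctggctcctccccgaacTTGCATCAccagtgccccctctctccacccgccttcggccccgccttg
ATF3, chr1:212608729-212608758 (+): tataaaaggggTGATGCAAcgctctccaag
DDIT3, chr12:57520773-57520860 (-): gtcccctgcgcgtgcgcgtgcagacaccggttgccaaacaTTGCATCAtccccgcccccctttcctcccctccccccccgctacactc
ASNS, chr7:97872458-97872487 (-): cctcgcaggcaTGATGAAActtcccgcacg
CHAC1, chr15:40953251-40953280 (+): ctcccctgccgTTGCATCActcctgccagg
SESN2, chr1:28259182-28259269 (+): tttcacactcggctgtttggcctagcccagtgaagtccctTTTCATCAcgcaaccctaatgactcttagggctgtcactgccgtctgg
DDIT4, chr10:72272938-72273025 (+): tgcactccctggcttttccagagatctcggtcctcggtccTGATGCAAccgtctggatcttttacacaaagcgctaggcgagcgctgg
TRIB3, chr20:380881-380910 (+): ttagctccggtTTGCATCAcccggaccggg
TRIB3, chr20:380914-380943 (+): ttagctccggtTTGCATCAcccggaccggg
TRIB3, chr20:380947-380976 (+): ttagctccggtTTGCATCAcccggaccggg

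The 3 TRIB3 stretches were identical over 30 bases and lay 33 bp apart. Their matches began 132, 165 and 198 bases after the GENCODE reference start at 380760, whereas the RefSeq starts of TRIB3 at 381295, 381306 and 381343 lie downstream of the repeat. At least 3 matches were found in only 24 of 78220 regions on the primary chromosomes (0.0307%). How tags that map equally well to several copies were handled is not given in the sources used here, and the effect of the repeat on the tag counts was not tested.

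How accessible the 10 loci were in each library was asked first. A region could be called in all 4 libraries (shared), in both tazemetostat libraries and neither control (tazemetostat-only), in both controls and neither tazemetostat library (control-only), or in another combination. Of the 41 regions, 15 were shared (36.6%), compared with 20.4% of all regions. Tazemetostat-only regions numbered 5 (12.2%) compared with 13.7% of all regions, a share close to the background, and control-only regions numbered 0 compared with 0.449%. With 1 library left out, a call in fewer libraries sufficed. Tazemetostat-only regions then numbered 6 of 41 without control replicate 1, compared with 13169 of 75778 in the genome. They numbered 10 without any 1 of the other libraries. The genome held 19588 of 75191 without control replicate 2, and 24132 of 66558 and 25037 of 67463 without tazemetostat replicates 1 and 2. The remaining 21 regions were called in another combination, 11 of them in a single library (26.8% compared with 46.2% of all regions).

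The loci were therefore called more often in every library than regions in general, and the 4 libraries differed in how many they held. Control replicate 1 had a peak in 17 of the 41 regions (41.5% compared with 31.9% of all regions), control replicate 2 in 24 (58.5% compared with 42.5%), and each tazemetostat library in 33 (80.5% compared with 67.9% and 66.4%). Of the 6 regions called in 3 libraries, 5 lacked a peak in control replicate 1, the library with the fewest tags, compared with 8544 of the 11380 such regions in the genome. A region without a peak carries no value, because a peak also had to reach 4 times the tag density of the surrounding 10 kb. In the controls 77.0% and 80.0% of the candidate peaks were lost to this local filter, compared with 62.7% and 70.9% in the treated libraries, so a position without a peak can still hold tags.

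**Figure D1:**
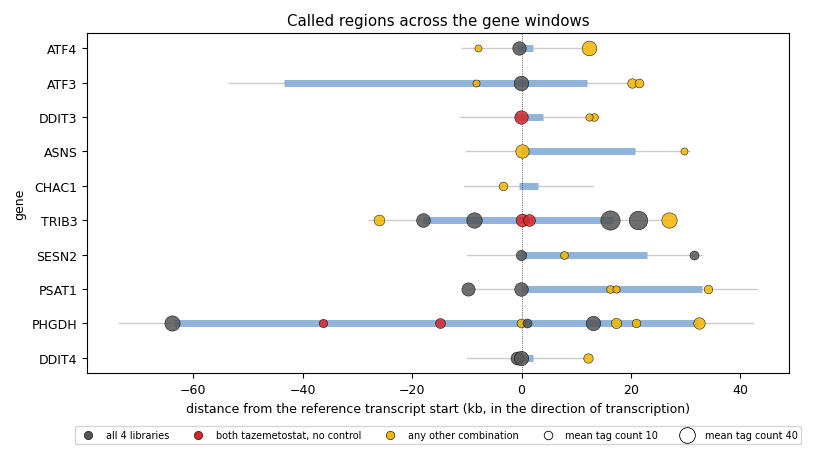
Position of the 41 called regions in the windows of the 10 genes, in kb from the reference transcript start along the direction of transcription. Blue bars are gene bodies, grey lines the 10 kb on either side, circle area rises with the mean normalised tag count over the libraries that had a peak, and colour gives the combination of libraries. The 5 red tazemetostat-only regions lie at DDIT3, TRIB3 and PHGDH.

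By gene, 3 of 10 had a tazemetostat-only region in the window (30.0% compared with 32.5% of 20033 coding genes), namely DDIT3, TRIB3 and PHGDH, and 0 had a control-only region (compared with 1.35%). A shared region overlapped the reference promoter, 1 kb upstream to 100 bp downstream of the start, at ATF4, ATF3, SESN2, PSAT1 and DDIT4 (5 of 10, compared with 31.3% of coding genes). The reference promoters of DDIT3 and TRIB3 were covered by a tazemetostat-only region (2 of 10, 20.0% compared with 5.94% of coding genes). CHAC1 alone had no peak at its reference promoter in any library (1 of 10, 10.0%, compared with 44.2% of coding genes).

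Levels are given as the normalised tag count, the number of tags in a peak per 10 M mapped tags of its library. For regions with exactly 1 peak in each library the 2 groups were compared with limma on log2(normalised tag count + 1), and p-values were adjusted over all 15383 such regions. In that comparison 6569 regions were higher under tazemetostat (42.7%) and 38 were lower (0.247%), with a median log2 change of 0.70. Of the 41 regions at the stress response genes 14 could be tested. 6 were higher (42.9%) and 0 were lower, and 8 were higher at an unadjusted p under 0.05, compared with 8918 of the 15383. Their median change was also 0.70, with a range of 0.20 to 0.92. Both tazemetostat libraries lay above both controls at 13 of the 14 regions, and at 81.6% of all tested regions. The reverse order was found at 0 of the 14 and at 1.75% of all tested regions. The share that rose and the size of the change were thus close to those of tested regions in general.

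The 6 calls depended on scaling to mapped tags. When the libraries were scaled to each other on the tested regions, by median centring in limma, by TMM factors in edgeR or by size factors in DESeq2, 0 of the 14 regions passed as higher at an adjusted p of 0.05, compared with 0.0%, 0.15% and 0.0195% of all tested regions. The counts at an unadjusted p under 0.05 were then 0, 2 and 0. The 2 under TMM factors, ATF4 and the TRIB3 region at the 3′ end of the gene, were both lower, where 680 of all tested regions were higher and 938 lower at that limit. These scalings take the median change of all tested regions to about 0, so the 6 called regions, whose changes lay above the median, came to between 0.01 and 0.21, and 7 regions below the median came out negative. Without tazemetostat replicate 1 or without tazemetostat replicate 2, 0 of the 14 and 0 of all 15383 regions passed in limma (smallest adjusted p at the 10 genes 0.242 and 0.0984). Without control replicate 1, 3 of the 14 passed, ATF3 and both SESN2 regions, compared with 3237 of the 15383.

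**Figure D2:**
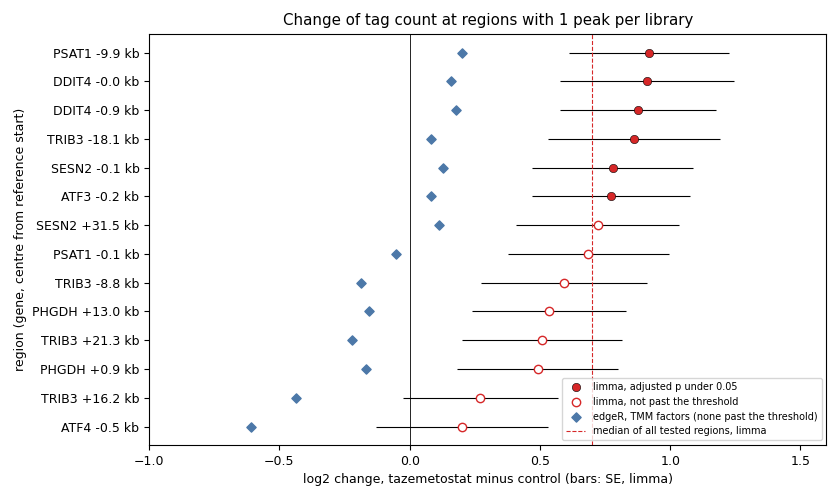
Log2 change of the normalised tag count, tazemetostat minus control, at the 14 regions with 1 peak in each library (circles with SE from limma, filled where the adjusted p was under 0.05), and the change after TMM scaling in edgeR (diamonds, none past the threshold). The dashed line marks the median of all 15383 tested regions, 0.70. After TMM scaling 7 of the regions, those of ATF4 and PHGDH, 3 of TRIB3 and the PSAT1 promoter, lie below 0.

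Among the transcription factors, ATF4 itself showed the least difference. ATF4 (chr22:39519695-39522683) is the factor whose translation drives the response. Its shared region, chr22:39519736-39520420, is annotated as an intron of a longer ATF4 transcript and ends before the reference start at 39520562. Control replicates 1 and 2 had normalised tag counts of 18.0 and 36.6 there, and tazemetostat replicates 1 and 2 had 31.7 and 27.9; for every region below values are given in this order. Control replicate 2 was the highest of the 4 and control replicate 1 the lowest, so the groups overlapped. The means were 27.3 ± 13.2 and 29.8 ± 2.69 (SD, n = 2 each). The log2 change was 0.20 ± 0.33 (SE, adjusted p = 0.583 in limma), below that of about 9 in 10 tested regions (percentile 9.19). Its sign turned to -0.56, -0.61 and -0.58 under median centring, TMM factors and DESeq2, and to -0.29 without control replicate 1, with no adjusted p under 0.05. No CARE match was found from 1000 bases before to 50 after the ATF4 start.

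The ATF4 window held another region over the promoter of its neighbour RPS19BP1, at chr22:39532577-39533170, with 30.7 in control replicate 2 and 42.3 and 30.1 under tazemetostat but no peak in control replicate 1. A weak peak in an intron of MIEF1 was called in tazemetostat replicate 2 alone, at 6.02.

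ATF3, a stress-induced factor of the same bZIP family, rose at its promoter when libraries were scaled to mapped tags. The gene spans chr1:212565334-212620777, and the region chr1:212608191-212608965 surrounds the reference start at 212608761. The tag counts were 29.7 and 20.6 in the controls and 43.8 and 42.2 under tazemetostat. The tazemetostat libraries lay close together and above both controls, with means of 43.0 ± 1.13 and 25.2 ± 6.43 (SD, n = 2 each). The log2 change was 0.77 ± 0.30 (SE, adjusted p = 0.0456 in limma), which fell to 0.01 under median centring (adjusted p = 0.995), 0.08 under TMM factors and 0.06 in DESeq2. Without control replicate 2 it was 0.52 (adjusted p = 0.169 in limma). Both CARE matches, 203 and 21 bases before the start, lay inside the peak of all 4 libraries. The longer ATF3 transcripts begin more than 40 kb upstream, and no peak was called at that start.

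DDIT3 encodes CHOP, a C/EBP family factor that promotes cell death under lasting stress. The gene lies on the minus strand at chr12:57516588-57521737, and a tazemetostat-only region, chr12:57520327-57520895, covered its reference start at 57520514. Tazemetostat replicate 1 had 39.3 (95% Poisson interval 31.1 to 49.1) in a peak of 568 bp, and tazemetostat replicate 2 had 17.7 (upper bound 23.5) in a peak of 300 bp. The higher count came from the wider peak. Their densities were 5.02 and 4.32 times the local background, not far above the required 4. The CARE match 306 bases before the start fell inside the peak of tazemetostat replicate 1 and outside that of tazemetostat replicate 2. The same region meets the promoters of MBD6 and of an unnamed Ensembl gene, so it cannot be given to DDIT3 alone.

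Among the enzymes of amino acid synthesis the promoters of ASNS and PSAT1 had peaks in 3 and 4 libraries and that of PHGDH in 2. ASNS, asparagine synthetase (chr7:97851677-97872542, minus strand), had a promoter region at chr7:97871959-97872760 with 15.5 (95% Poisson interval 10.9 to 21.4) in control replicate 2, and with 36.8 and 33.5 in the tazemetostat libraries. Both treated libraries were higher than the control library that had a peak, and control replicate 1 had none. No test was made because 1 library lacked a value. The control peak stood further above its surroundings, at 7.35 times the local background compared with 5.25 and 4.59. The CARE match 68 bases before the start lay inside all 3 peaks, while a second match 886 bases before the start lay in no region.

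PSAT1, phosphoserine aminotransferase of the serine pathway (chr9:78297125-78330093), had shared regions at its start and about 10 kb upstream. The promoter region, chr9:78296705-78297351, had 17.5 and 27.3 in the controls and 37.8 and 33.9 under tazemetostat. Groups did not overlap, yet the log2 change of 0.69 ± 0.31 (SE) missed the threshold (adjusted p = 0.0700 in limma), and it turned to -0.075, -0.051 and -0.038 under median centring, TMM factors and DESeq2. Per kilobase of peak it passed (0.56, adjusted p = 0.0391 in limma), as it did without control replicate 2 (0.99, adjusted p = 0.0106). The upstream region, chr9:78286909-78287638, had 15.1 and 22.7 against 37.3 and 34.6. It showed the largest change among the 14 regions, 0.92 ± 0.31 (SE, adjusted p = 0.0264 in limma), which was 0.16, 0.20 and 0.21 under the same 3 scalings and 0.64 without control replicate 1 (adjusted p = 0.138). In tazemetostat replicate 2 this upstream peak stood 16.5 times above its surroundings, compared with 5.17 in tazemetostat replicate 1. No CARE match was found in either PSAT1 region.

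PHGDH, which catalyses the first step of serine synthesis, had the longest window, since GENCODE places upstream starts far from the reference start at 119711934 (gene chr1:119648411-119744218). The region at the reference promoter, chr1:119711660-119712058, was weak, with 10.9 in control replicate 2 and 10.5 in tazemetostat replicate 2 and no peak in the other libraries. The adjoining shared region, chr1:119712582-119713159, had 8.73 and 9.24 in the controls and 16.6 and 10.2 under tazemetostat. Its log2 change of 0.49 ± 0.31 (SE) did not pass (adjusted p = 0.168 in limma), and it was -0.27, -0.17 and -0.16 under the 3 other scalings.

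Higher levels at PHGDH were found away from that start. The region over the upstream start shared with ZNF697, chr1:119647608-119648620, had 25.0, 37.4 and 36.3 in the 2 controls and tazemetostat replicate 1, and 50.1 over 2 peaks in tazemetostat replicate 2, so it was not tested. A region over an exon downstream of the reference start, chr1:119724638-119725272, had 26.8 and 26.5 against 42.3 and 36.1. The controls were nearly equal there and both tazemetostat libraries were higher, with a log2 change of 0.54 ± 0.29 (SE, adjusted p = 0.122 in limma) that was -0.22, -0.16 and -0.16 under the other scalings. Per kilobase of peak it passed (0.55, adjusted p = 0.0405 in limma).

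Tazemetostat-only regions lay at a pair of PHGDH intron positions. Chr1:119675496-119675954 had 11.1 and 7.53, and chr1:119696690-119697272 had 12.1 and 16.6. The counts were low, 20 to 44 tags per peak. The second stood out from its surroundings more than any other tazemetostat-only region at the 10 genes, at 16.9 and 8.72 times the local background, and it was the 1 such region that remained when every peak had to reach a fold of 8.

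CHAC1, an enzyme that degrades glutathione (chr15:40952962-40956512), had the emptiest window. The CARE match 209 bases before its start lay in no region. The only peak, chr15:40949854-40950349, was called in tazemetostat replicate 2 at 10.2 (95% Poisson interval 6.7 to 14.8) and lay 3.37 kb before the reference start, at the start of the pseudogene ISCA1P4.

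Among the regulators that feed back on the response, TRIB3 had the highest summed tag count over its window in every library. Tag counts were not adjusted for copy number, and the window also took in a region at the promoter of RBCK1. TRIB3 (chr20:362835-397559) is a pseudokinase that binds ATF4 and restrains it. Its reference promoter region, chr20:380588-381061, was tazemetostat-only with 23.2 and 26.7, and so was the adjacent intronic region, chr20:381986-382402, with 26.2 and 16.9. Both were close to the limit of the local filter, with folds of 4.23 and 4.29 at the promoter and 4.83 and 4.32 in the intron. The 3 repeated CARE sites shown above lay inside the promoter peak of both tazemetostat libraries, and the intron region held a further match 1390 bases after the start.

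The other TRIB3 regions had a peak in a control too, and the highest tag counts of the 10 windows lay among them. The highest folds over the local background lay elsewhere, at PHGDH (16.9) and PSAT1 (16.5). At the 3′ end of the gene, chr20:396596-397338, the tag counts were 59.3 and 51.3 in the controls and 73.1 and 61.0 under tazemetostat, and at the intergenic chr20:401678-402382 they were 40.1 and 53.4 against 77.1 and 56.8. Groups did not overlap at either, but the log2 changes of 0.27 ± 0.30 and 0.51 ± 0.31 (SE) did not pass (adjusted p = 0.413 and 0.154 in limma). They turned to -0.44 and -0.22 under TMM factors (adjusted p = 0.363 and 0.704 in edgeR).

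Upstream, the alternative TRIB3 start at chr20:362338-362982 rose from 14.5 and 28.2 to 42.8 and 33.1, with a log2 change of 0.86 ± 0.33 (SE, adjusted p = 0.0419 in limma) that was 0.08 under TMM factors. Per kilobase of peak it was 0.38 (adjusted p = 0.150 in limma). Without control replicate 1 the change was 0.40 (adjusted p = 0.332 in limma). The intronic region chr20:371677-372283 had 22.1 and 39.9 against 48.4 and 42.5, and its change of 0.59 ± 0.32 (SE) did not pass (adjusted p = 0.116 in limma) and was -0.19 under TMM factors, while without control replicate 2 it was 1.00 (adjusted p = 0.00971). Thus the reference promoter lacked control peaks in a window where 4 other regions had one in every library.

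SESN2, a sestrin that restrains growth signalling by mTORC1 (chr1:28259518-28282491), rose at its promoter region chr1:28259148-28259745 from low levels. The controls had 12.8 and 9.66 and the tazemetostat libraries 24.2 and 16.2, with means of 11.2 ± 2.22 and 20.2 ± 5.66 (SD, n = 2 each). The log2 change was 0.78 ± 0.31 (SE, adjusted p = 0.0477 in limma), which was 0.02 under median centring, 0.13 under TMM factors and 0.11 in DESeq2. Without control replicate 2 it was 0.59 (adjusted p = 0.117 in limma). The peak also began further upstream in tazemetostat replicate 1 than in the other 3 libraries. The CARE match 296 bases before the start lay inside that 1 peak only. A shared intergenic region downstream, chr1:28290786-28291282, had 10.5 and 6.3 against 12.6 and 15.8, and its change of 0.72 ± 0.31 (SE) did not pass (adjusted p = 0.0623 in limma) and was -0.038 under median centring. Per kilobase of peak it passed (0.57, adjusted p = 0.0339 in limma).

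DDIT4, also known as REDD1, likewise restrains mTORC1 (chr10:72273919-72276036), and both of its promoter regions rose. The region over the start, chr10:72273618-72274197, had 16.3 and 29.4 in the controls and 53.4 and 33.1 under tazemetostat. Tazemetostat replicate 1 was far above the rest, and tazemetostat replicate 2 only a little above control replicate 2. The means were 22.9 ± 9.26 and 43.2 ± 14.4 (SD, n = 2 each), and the log2 change was 0.91 ± 0.33 (SE, adjusted p = 0.0368 in limma).

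The region just upstream of DDIT4, chr10:72272801-72273305, had 15.7 and 20.6 against 35.8 and 32.0, with a log2 change of 0.88 ± 0.30 (SE, adjusted p = 0.0289 in limma). Under TMM factors the changes at the start and upstream were 0.16 and 0.18. Peaks there were 300 bp in both controls and 462 and 457 bp under tazemetostat, and per kilobase of peak the upstream change was 0.29 (adjusted p = 0.260 in limma) and that at the start 0.47 (adjusted p = 0.0790 in limma). The CARE match 946 bases before the start lay inside the peaks of control replicate 2 and both tazemetostat libraries and just outside the peak of control replicate 1, which began further downstream. Without control replicate 1 neither DDIT4 region passed (adjusted p = 0.112 and 0.235 in limma).

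**Figure D3:**
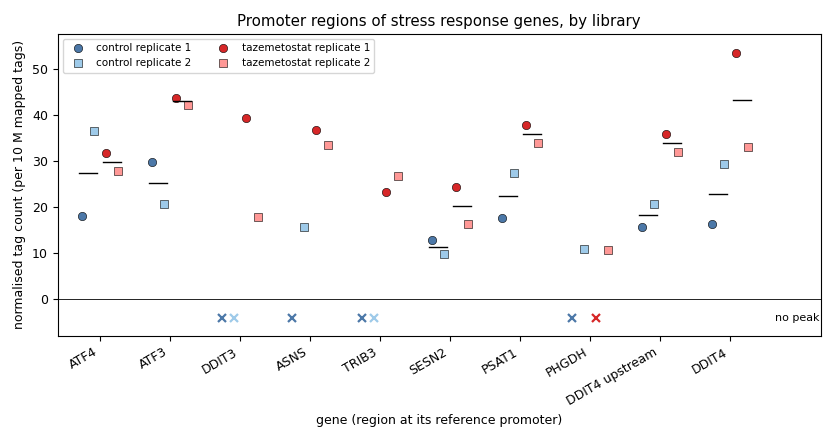
Normalised tag count (tags per 10 M mapped tags) of each library at the regions over the reference promoters. Points are libraries, bars are group means (n = 2) where all 4 libraries had a peak, and crosses below 0 mark libraries without a peak. The controls lack a peak at DDIT3 and TRIB3, and the ATF4 groups overlap, with control replicate 2 at 36.6 above both tazemetostat libraries.

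The same genes were looked at by role. At promoters, 4 of the 6 tested regions rose, those of ATF3, SESN2 and DDIT4 (2 regions), compared with 43.8% of 4881 tested regions at coding promoters. None fell, compared with 0.0205%, and those of ATF4 and PSAT1 did not pass. Rises were called among factors and regulators, and the 1 call at an enzyme lay at the region upstream of PSAT1. With 1 to 9 called regions per gene, differences between roles were not tested.

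How far the peaks stood above their surroundings was described next. For the controls and then the tazemetostat libraries the median fold over the local 10 kb was 5.57, 4.79, 5.69 and 4.80 for the peaks at the 10 genes, compared with 5.92, 5.65, 6.09 and 5.75 for all peaks. The share of peaks with a fold under 5 was 47.1%, 58.3%, 27.3% and 52.9%, compared with 33.3%, 36.6%, 31.3% and 35.1%. In 3 of the 4 libraries, then, peaks close to the filter limit were more common at these genes than in general, and tazemetostat replicate 1 was the exception.

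The shared regions were looked at separately. Their median normalised tag counts in the same order of libraries were 17.5, 27.3, 37.8 and 33.9, compared with 16.3, 19.7, 33.3 and 29.0 for all shared regions, so the tag counts were at or above those of shared regions in general. Their median folds were 4.94 and 5.08 in the controls and 7.02 and 6.67 under tazemetostat, compared with 6.93 and 6.05 and with 6.78 and 6.09. Among shared regions the lower folds were thus those of the controls, whereas over all peaks at these genes tazemetostat replicate 2 had low folds too.

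**Figure D4:**
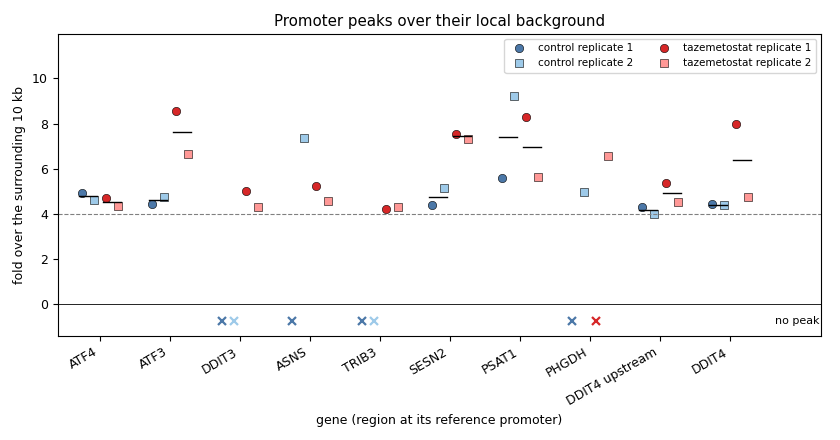
Fold of each promoter peak over the tag density of the surrounding 10 kb, by library. Points are libraries, bars are group means (n = 2) where all 4 libraries had a peak, the dashed line is the fold of 4 that a peak had to reach, and crosses mark libraries without a peak. The DDIT3 and TRIB3 promoter peaks lie between 4.23 and 5.02, and all ATF4 peaks under 5.

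Base composition was similar at most of the promoters. GC content was between 59.8% and 67.0% in the promoter regions of ATF4, ATF3, DDIT3, ASNS, TRIB3, SESN2, PSAT1 and DDIT4, and 51.6% at PHGDH. The promoter regions without control peaks, DDIT3 with 63.4% and TRIB3 with 65.8%, were within that range.

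Over whole regions, a CARE match was found in 14 of the 41 (34.1%). Among all regions of a length like that of each of the 14, between 6.33% and 8.61% held a match. By class the 14 were 8 of the 15 shared regions, 4 of the 5 tazemetostat-only regions and 2 of the 21 others. Region length differed between the classes and was not adjusted for, and differences between classes were not tested. In the central 300 bp, a window of equal length for all, a match was found in 11 of 41 (26.8%) compared with 4.46% of 78220 regions. Since the genes are known for such sites, these shares describe the loci and carry no test. The cyclic AMP response element TGACGTCA and the ER stress element, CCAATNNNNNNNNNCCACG, were found in 0 of the 41 regions, compared with 0.534% and 0.0243% of central windows. Neither absence says anything about the factors that bind them.

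The rest of the pathway was taken from a list of 47 other genes, which include the eIF2 kinases, further transcription factors, amino acid transporters, aminoacyl-tRNA synthetases and metabolic enzymes. Their windows held 196 regions, of which 71 were shared (36.2%), 23 tazemetostat-only (11.7%) and 0 control-only, much like the 10 genes. The 3 regions of the DDIT3 window also lie in the MARS1 window, so they are counted in both sets. Of 69 tested regions 28 were higher (40.6%) and 0 were lower. At the reference promoters 12 of 29 tested regions were higher and 0 were lower. After TMM scaling 1 of the 69 regions passed in edgeR, with 5 at an unadjusted p under 0.05, rises and falls counted together. Of the 29 promoter regions 0 passed, with 1 at that limit. Among all 15383 tested regions 23 passed as higher and 174 as lower, with 680 and 938 at an unadjusted p under 0.05.

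A shared region overlapped the reference promoter of 31 of the 47 genes (66.0%, compared with 31.3% of coding genes). By role, such a region was found at 9 of 10 aminoacyl-tRNA synthetases, which charge tRNAs with amino acids, and 4 of 6 amino acid transporters. It was also found at 6 of 9 metabolic enzymes and 2 of 6 transcription factors. Among the synthetases 5 of 8 tested promoter regions rose, where 43.8% of tested coding promoters did, and differences between roles were not tested. At reference promoters the largest rises were at IARS1, the isoleucyl-tRNA synthetase, from 9.31 and 20.2 to 38.3 and 36.9 (log2 change 1.38 ± 0.33, SE, adjusted p = 0.00996 in limma), at MARS1, the methionyl-tRNA synthetase next to DDIT3, from 9.89 and 8.4 to 26.7 and 22.6 (1.34 ± 0.30, adjusted p = 0.00751), and at EIF2S1, the eIF2 subunit that the kinases phosphorylate, from 12.8 and 22.7 to 42.8 and 39.5 (1.22 ± 0.32, adjusted p = 0.0123). The EIF2S1 region also covers the promoter of ATP6V1D. After TMM scaling the adjusted p in edgeR was 0.495, 0.438 and 0.556.

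A tazemetostat-only region overlapped the reference promoter of 3 of the 47 genes (6.38%, compared with 5.94% of coding genes): VLDLR, YARS1 and GPT2. At YARS1 and GPT2 a shared region also overlapped the reference promoter, so VLDLR alone lacked control peaks there. GPT2, a mitochondrial alanine aminotransferase, had 32.8 and 28.2 in its tazemetostat-only region. The other tazemetostat-only regions with the highest levels lay in the windows of PYCR1, a proline synthesis enzyme (42.8 and 44.4, inside an intron of MAFG), SQSTM1, an autophagy receptor (40.3 and 20.7), AARS1 (33.8 and 23.3, at the promoter of EXOSC6) and SLC3A2, the heavy chain of amino acid transporters (26.2 and 17.7, intergenic). The MARS1 window also holds the DDIT3 promoter region described above.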

How the data were processed

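Reads had been trimmed (Trim Galore 0.6.6), aligned by the authors with Bowtie2 2.3.5.1 (genome build hg38) and turned into peaks library by library in HOMER 4.11.1, per the labels. Per the file headers a peak needed a fold of 4 over the surrounding 10 kb, a local p-value of 1.00e-04 and a false discovery rate of 0.001, whereas the methods state a less strict rate. The normalised tag count as deposited is a signal, given in tags per 10 M mapped tags. The deposited fold over the local background is a ratio. The deposited peak score, taken to be a tag count, was not used for levels. The deposited p-value was not used for tests. Normalised tag counts times mapped tags came within 0.25 of whole numbers in 100% of peaks, and those tags entered edgeR and DESeq2.

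Groups and replicate numbers came from the sample titles. Tests were run under R 4.3.3 in limma 3.58.1, in edgeR 4.0.16 by quasi-likelihood, and in DESeq2 1.42.0, with Benjamini-Hochberg adjustment, two-sided, threshold 0.05, and gene models were those of GENCODE release 44. The log2(normalised tag count + 1) scale understates changes of low values. Poisson intervals cover counting error only. limma was tested on simulated data in which 200 of 15383 regions changed 3-fold, and recovered 98.5% with 2.96% false calls. In the real libraries 6569 regions were called higher and the median log2 change was 0.70. The rate of false calls under a shift of that kind was not tested. All 10 genes are named. Of the 47 others, those named have the 3 largest rises at promoters (the rule also asked for falls, of which there were 0) and up to 6 one-group regions by level, and VLDLR and YARS1 were named after their values were seen. Genes, lists and motifs were chosen with earlier results of these data known. Promoter sequences were read from hg38. The tag directories behind the study's own comparison were not analysed here. Alternatives tried were other scalings, tools, pseudocounts, filters, overlaps and windows, a replicate block, and each library left out. Some markers of the fixed lists are not reported here.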

Additional observations from a re-analysis of the deposited data

How the results depend on the processing

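The number of higher regions among the 14 tested at the 10 genes was 6 with mapped-tag scaling and 0 under median centring, edgeR with TMM factors and DESeq2, while leaving out 1 library gave 0 to 6 (3 without control replicate 1, 0 without either tazemetostat library, where the lone sample is assumed to vary like the others). Lower regions numbered 0 throughout. Tazemetostat-only regions numbered 5 of 41, compared with 11044 of 80551 in the genome. When peaks had to reach a local fold of 8 they numbered 1 of 11, compared with 3652 of 27361. When each library was limited to its 26133 peaks of highest normalised tag count they numbered 3 of 30, compared with 2594 of 43179. With 1 library left out they numbered 6 to 10 (6 without control replicate 1, 10 without any of the other libraries). Control-only regions numbered 0, and 0 to 1 with 1 library left out (1 without control replicate 1, compared with 5722 of 75778 in the genome). At a local fold of 8 no region at these genes could be tested. Under median centring, TMM factors and DESeq2 the sign turned at ATF4 (-0.56, -0.61, -0.58; -0.29 to 0.69 with 1 library left out, the lowest without control replicate 1), at the TRIB3 regions starting at 371677 (-0.17, -0.19, -0.16), 396596 (-0.49, -0.44, -0.45) and 401678 (-0.25, -0.22, -0.21), at the PSAT1 promoter (-0.075, -0.051, -0.038) and at the PHGDH regions starting at 119712582 (-0.27, -0.17, -0.16) and 119724638 (-0.22, -0.16, -0.16), and under median centring at the downstream SESN2 region (-0.038). With the replicate number as a block (replicate block) 4 of the 14 regions were higher, without ATF3 and the SESN2 promoter. In the genome 5046 of the 15383 were higher in that setting. When regions with at least 1 peak per library were tested on summed counts, 4 of 15 were higher, compared with 6599 of 16430. ATF3 and the SESN2 promoter just missed the threshold there (adjusted p = 0.0502 and 0.0529 in limma). In edgeR with mapped tags as library size 7 of the 14 were higher, compared with 7455 of the 15383. Per kilobase of peak 6 of the 14 were higher, compared with 5063 of the 15383. There 3 calls (TRIB3 upstream start and both DDIT4 regions) gave way to 3 others (PSAT1 promoter, downstream SESN2 and PHGDH from 119724638). Deviations of same-numbered libraries from their group means correlated at r = -0.002 over 15383 regions. A shift common to all regions drops out of this value, so it cannot decide whether the numbers pair the libraries. The cause of these changes was not tested. Depth sets the counting error of the weakest peaks, which held 13 to 16 tags.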
